A study of Mus musculus with 8 samples.

Results

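The 9 genes described here encode the enzymes that make serine and pass its one-carbon unit to folate: Phgdh, Psat1, Psph, Shmt1, Shmt2, Mthfd1, Mthfd1l, Mthfd2 and Aldh1l2. They were chosen by symbol as members of this pathway, out of 24421 gene symbols in the count table, and all 9 passed the filter on low counts. RNA was sequenced from mouse bone marrow cells of the strain C57BL/6 that carry MLL-AF10, a fusion oncoprotein found in acute leukaemia. MATIP cells carry MLL-AF10, Tip60 flox/flox alleles and Cre-ERT2. Tip60, the product of Kat5, acetylates histones, and 4-hydroxytamoxifen (4-OHT) switches Cre-ERT2 on. For MAflox cells the labels give MLL-AF10 and flox, without saying what is floxed or whether Cre-ERT2 is present. Cells of each line received 100 nM 4-OHT or the solvent ethanol (EtOH) for 4 days, in Methocult supplemented with GM-CSF, IL-3 and SCF (10 nM of each). There were 2 libraries in each of the 4 groups MATIP 4-OHT, MATIP EtOH, MAflox 4-OHT and MAflox EtOH. The labels give neither the promoter of Cre-ERT2 nor whether a line is 1 clone or its libraries are separate cultures, so each p-value speaks only of the spread among the libraries at hand, which may be technical.

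Serine is made from the glycolytic intermediate 3-phosphoglycerate by PHGDH, PSAT1 and PSPH in turn. SHMT2 in mitochondria and SHMT1 in the cytosol split serine into glycine and a one-carbon unit bound to tetrahydrofolate. MTHFD2 and MTHFD1L turn that unit into formate in mitochondria, MTHFD1 takes formate up into the cytosolic folate pool for purine and thymidylate synthesis, and ALDH1L2 oxidises formyl-tetrahydrofolate in mitochondria to carbon dioxide. The pathway is active in dividing cells, and several of its genes are known targets of ATF4, the transcription factor of the amino acid and integrated stress responses, and of MYC.

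The promoters of 4 of the genes are shown because their genes stood for the different patterns found below. Phgdh and Psat1 fell far more in MATIP than in MAflox cells, Shmt2 fell at least 2-fold in both lines, and Mthfd2 was the gene whose responses in the lines were not told apart. Each sequence is the 250 bases before the RefSeq transcription start on GRCm38.p6, read 5′ to 3′ on the strand of the gene, and capitals mark CCAAT or its reverse complement ATTGG. All 4 genes lie on the minus strand, and the windows are chr3:98339970-98340219 for Phgdh, chr19:15925060-15925309 for Psat1, chr10:127522445-127522694 for Shmt2 and chr6:83317605-83317854 for Mthfd2. The windows of Psat1 and Mthfd2 lie inside the GENCODE gene spans given below, which end at 15947337 and 83325908. For these genes the 2 annotations thus place the outermost start differently, and the windows cover the RefSeq start only.
Phgdh: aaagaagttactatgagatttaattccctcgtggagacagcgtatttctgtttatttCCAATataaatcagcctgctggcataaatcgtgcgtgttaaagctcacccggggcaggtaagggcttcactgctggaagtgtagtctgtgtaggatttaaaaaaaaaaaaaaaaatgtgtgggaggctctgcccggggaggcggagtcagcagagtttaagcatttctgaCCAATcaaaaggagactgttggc
Psat1: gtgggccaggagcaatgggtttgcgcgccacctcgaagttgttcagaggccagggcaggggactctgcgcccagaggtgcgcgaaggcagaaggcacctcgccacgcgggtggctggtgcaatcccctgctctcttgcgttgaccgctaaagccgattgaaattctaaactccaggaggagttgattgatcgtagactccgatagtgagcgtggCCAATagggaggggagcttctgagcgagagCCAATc
Shmt2: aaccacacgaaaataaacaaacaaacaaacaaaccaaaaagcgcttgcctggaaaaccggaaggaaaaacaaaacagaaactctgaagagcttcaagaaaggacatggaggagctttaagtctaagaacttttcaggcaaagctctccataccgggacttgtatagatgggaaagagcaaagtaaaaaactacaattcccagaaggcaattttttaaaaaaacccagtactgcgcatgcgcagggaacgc
Mthfd2: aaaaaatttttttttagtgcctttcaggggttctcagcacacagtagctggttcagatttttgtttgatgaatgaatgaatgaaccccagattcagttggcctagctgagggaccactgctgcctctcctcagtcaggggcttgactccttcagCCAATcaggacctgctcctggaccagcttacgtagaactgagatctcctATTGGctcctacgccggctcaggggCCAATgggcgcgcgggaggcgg
Windows were found for 8 of the 9 genes, with a second start for Psat1, which made 9 windows. CCAAT, the letters bound by the factor NF-Y, stood on either strand in 6 of the 9 windows, against 33.8% of all 32851 windows of the same length. These were 1 window each of Phgdh, Psat1, Psph, Shmt1, Mthfd1 and Mthfd2. The GC box GGGCGG stood in 5 of the 9 windows (Psat1, Psph, Shmt1, Mthfd1, Mthfd1l), against 32.7% of all windows. For Psat1 it lay only in the window of the second start, which is not printed. The E-box CACGTG and the ATF4 core TGATGNAA, searched on both strands, stood in none of the 9 windows, against 6.02% and 3.45% of all windows. Matches of different motifs did not overlap. A match describes letters in this window only.

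Library totals ran between 41101309 and 57312490 gene counts. Kat5 was at 8.11 and 8.32 CPM (gene counts scaled by library size) in MATIP 4-OHT, against 41.1 and 41.2 CPM in MATIP EtOH, and at 57.5 and 62.5 CPM in MAflox 4-OHT, against 43.7 and 41.2 CPM in MAflox EtOH. The floxed gene was thus low in the 2 libraries where its deletion was induced, and its log2 change was −2.32 ± 0.09 in MATIP and 0.50 ± 0.07 in MAflox cells. Kat5 shares 426 exon bases with Rnaseh2c on the opposite strand, and the strandedness of the counting is not given in the sources used here. All 5 haematopoietic markers (Ptprc, Spi1, Cd34, Kit, Mpo) had counts in every group, and summed to 2830 to 2930 CPM in MATIP 4-OHT, against 8490 to 8580 CPM in MATIP EtOH, and to 2610 to 2710 CPM in MAflox 4-OHT, against 5300 to 5350 CPM in MAflox EtOH. Markers of mature neutrophils summed to 31200 to 34600 CPM in MATIP 4-OHT, against 702 to 828 CPM in MATIP EtOH. In MAflox cells they summed to 47600 to 51100 CPM with 4-OHT, against 187 to 194 CPM with EtOH. All 7 of these markers had a count in every group. Markers of monocytes and macrophages summed to 9760 to 10400 CPM in MATIP 4-OHT, against 272 to 298 CPM in MATIP EtOH. In MAflox cells these summed to 4360 to 4520 CPM with 4-OHT, against 211 to 219 CPM with EtOH. Of 6 such markers, 6 had a count in each MATIP group and 5 in each MAflox group. Values of single markers are not given, so a few abundant ones could carry any of these sums. In these bulk samples, fewer cells of a type and less RNA per cell cannot be told apart. The part of these cell types in the results below was not tested.

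The first comparison asked how the enzymes responded to 4-OHT in MATIP cells. All 9 genes fell (edgeR quasi-likelihood test, Benjamini-Hochberg adjusted over 13722 genes, called at 0.05), where 38.6% of all tested genes were called lower. Of these, 8 fell at least 2-fold, Mthfd2 being the exception, where 14.1% of tested genes did. Their median log2 change was −1.96, against 0 over all tested genes. In the same cells the summed level of the 9 genes was 662 and 688 CPM with 4-OHT, against 2240 and 2280 CPM with EtOH.

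In MAflox cells 7 of the 9 genes fell with 4-OHT, against a background of 32.1% of genes called lower. Psph was called higher, as were 33.1% of tested genes, and Aldh1l2 was not called. Falls of at least 2-fold were 2 of the 9, Shmt2 and Mthfd1, where 8.29% of tested genes fell so far. The median log2 change was −0.53, against 0.02 over all tested genes. Summed over the 9 genes, the level was 1500 and 1530 CPM in MAflox 4-OHT, against 2260 and 2300 CPM in MAflox EtOH.

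The test of the difference between the responses, which asks whether a gene changed more in one line than in the other, called 8 of the 9 genes lower in MATIP cells, where 33.6% of tested genes were. For 6 of them the difference was at least 2-fold, against 11.4% of tested genes. Shmt2 and Mthfd1 differed by less, and Mthfd2 was not called. The median difference was −1.30 on the log2 scale, against −0.03 over all tested genes. The responses share no library, but they share the estimate of the spread.

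**Figure D1:**
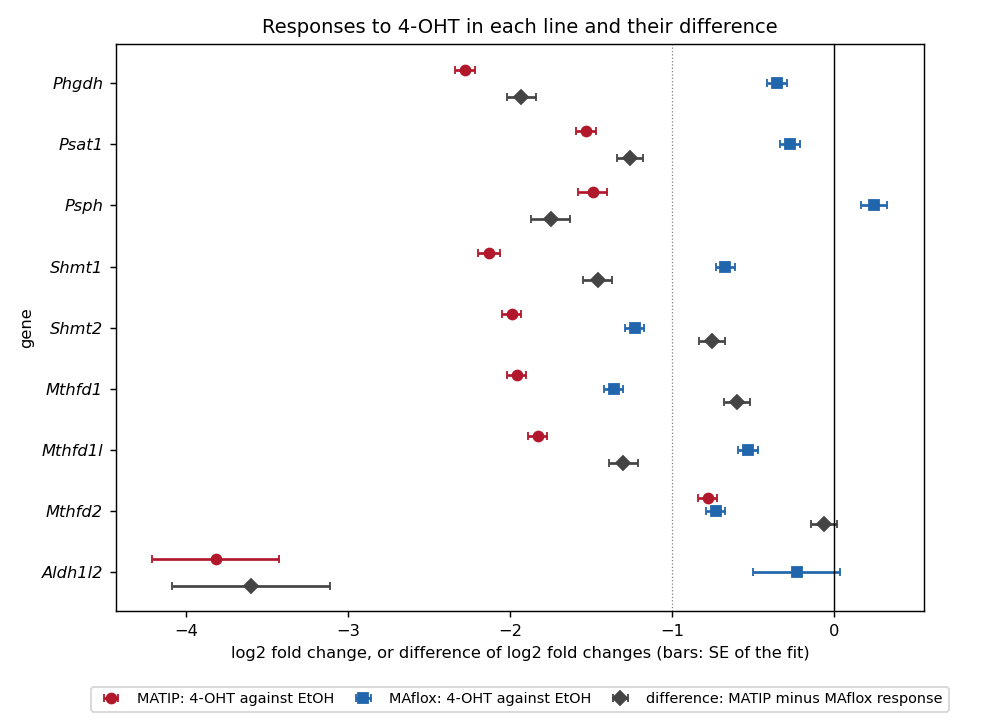
Log2 fold change of each of the 9 enzymes with 4-OHT against EtOH in MATIP and in MAflox cells, and the difference of the 2 responses (points, with bars for the SE of the edgeR fit over 8 libraries; the dotted line marks a 2-fold fall). All 9 points lie below 0 for MATIP cells, while those for MAflox cells run between −1.36 (Mthfd1) and 0.25 (Psph), and the 2 responses of Mthfd2 lie at −0.78 and −0.73.

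Each of the 3 serine synthesis genes responded differently in the lines. Phgdh, whose enzyme catalyses the first and committed step, lies on chromosome 3 at 98313170 to 98339990 (mm10). It was at 83.0 and 94.2 CPM in MATIP 4-OHT, against 428 and 434 CPM in MATIP EtOH, and at 347 and 365 CPM in MAflox 4-OHT, against 455 and 453 CPM in MAflox EtOH. Within each line the treated libraries were both below the EtOH libraries, and the treated MATIP libraries stood apart from all the others. Phgdh fell 4.87-fold in MATIP cells, a log2 change of −2.28 ± 0.06 (SE; edgeR adjusted p = 1.06e-16), which 1.77% of tested genes equalled or passed. In MAflox cells it fell 1.28-fold (log2 −0.35 ± 0.06, edgeR adjusted p = 3.93e-05). The responses differed by −1.93 ± 0.09 on the log2 scale (edgeR adjusted p = 1.05e-12).

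Psat1 encodes the aminotransferase that adds the amino group from glutamate, and lies on chromosome 19 at 15904678 to 15947337. It was the most counted of the 9, with 195 and 194 CPM in MATIP 4-OHT, against 545 and 575 CPM in MATIP EtOH, and 457 and 485 CPM in MAflox 4-OHT, against 554 and 582 CPM in MAflox EtOH. Its treated and EtOH libraries did not overlap in either line. Psat1 fell 2.88-fold in MATIP cells (log2 −1.53 ± 0.06, edgeR adjusted p = 9.54e-15) and 1.21-fold in MAflox cells (log2 −0.27 ± 0.06, edgeR adjusted p = 0.000281). The difference was −1.26 ± 0.08 (edgeR adjusted p = 1.13e-10).

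Psph encodes the phosphatase of the last step and lies on chromosome 5 at 129765558 to 129787449. Its level was 19.4 and 22.6 CPM in MATIP 4-OHT, against 59.7 and 58.7 CPM in MATIP EtOH, and 66.7 and 72.2 CPM in MAflox 4-OHT, against 62.3 and 54.5 CPM in MAflox EtOH. It was the only one of the 9 called in opposite directions in the lines. In MATIP cells it fell 2.82-fold (log2 −1.49 ± 0.09, edgeR adjusted p = 6.26e-12). In MAflox cells it rose 1.19-fold (log2 0.25 ± 0.08, edgeR adjusted p = 0.0107), a call that was lost without MAflox 4-OHT replicate 2 (log2 0.21, edgeR adjusted p = 0.0917), without MAflox EtOH replicate 2 (log2 0.16, edgeR adjusted p = 0.177) and with any trend on gene length and GC content taken out (log2 0.15, edgeR adjusted p = 0.100). The difference between the lines, −1.75 ± 0.12 (edgeR adjusted p = 2.74e-10), was called under every one of the 13 alternatives, and past 2-fold. Psph shares 452 exon bases, 10.44% of its own, with Cct6a on the opposite strand. Cct6a had the higher level in every group, so the share of Psph counts that could come from it is not known and may exceed the share of bases. Cct6a, a subunit gene of the cytosolic chaperonin, averaged 160 ± 0.395 CPM in MATIP 4-OHT, against 591 ± 27.8 CPM in MATIP EtOH, and 478 ± 22.8 CPM in MAflox 4-OHT, against 658 ± 1.87 CPM in MAflox EtOH (SD, n = 2 each). It fell in both lines (log2 −1.89 ± 0.06 in MATIP and −0.46 ± 0.06 in MAflox cells), whereas Psph was higher in the treated MAflox libraries.

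**Figure D2:**
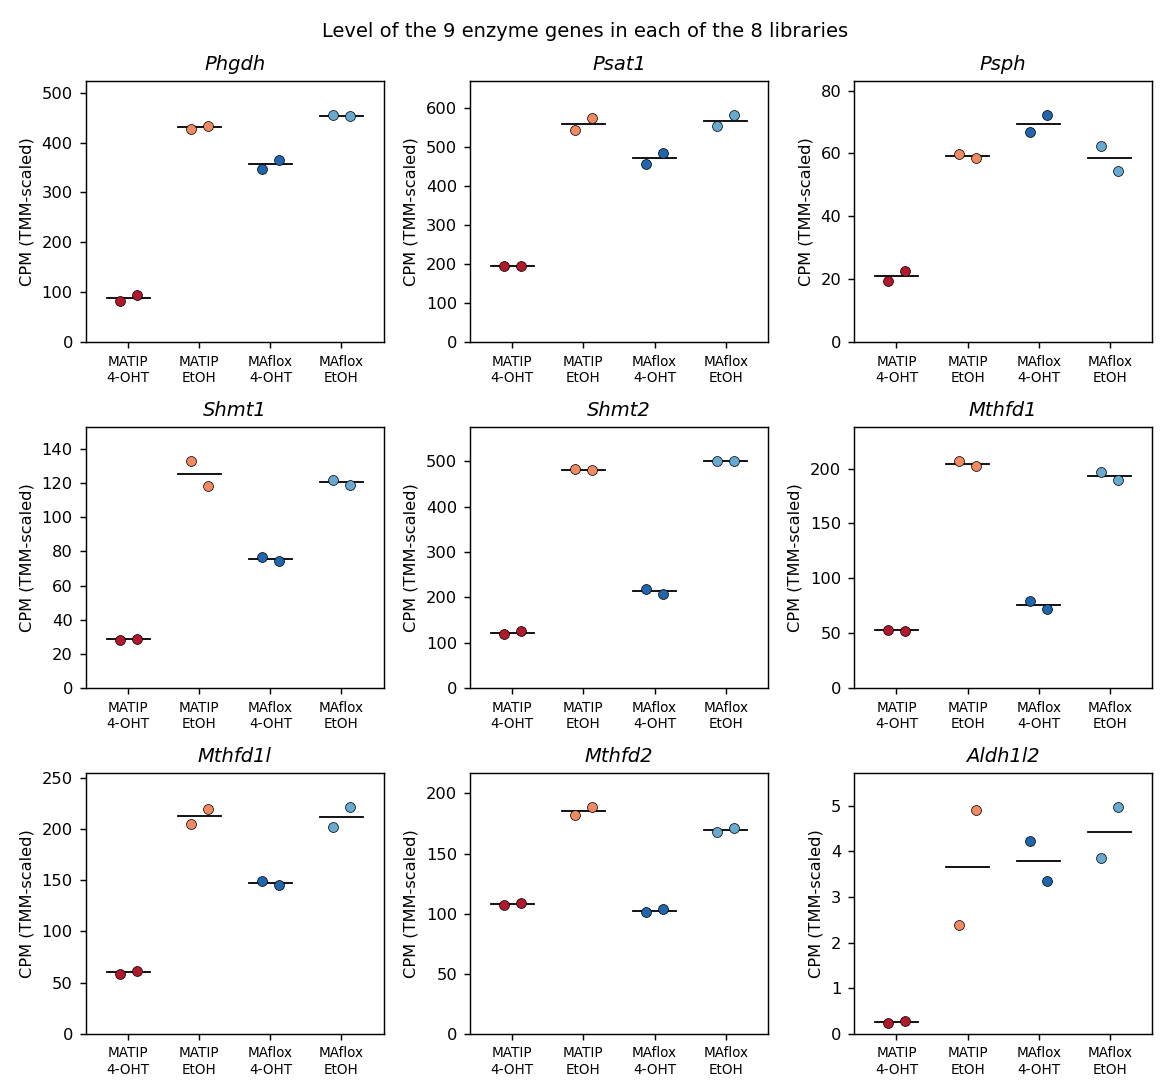
Level of each of the 9 enzymes in every library (CPM, linear axis from 0, a separate scale for each gene), grouped as MATIP 4-OHT, MATIP EtOH, MAflox 4-OHT and MAflox EtOH, with 1 point per library and a bar at the mean of each group. The 2 treated MATIP libraries are the lowest of all 8 for every gene but Mthfd2. For Mthfd2 the treated MAflox libraries are slightly lower (101 and 104 CPM, against 107 and 109 CPM in MATIP 4-OHT).

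The serine hydroxymethyltransferases, which release the one-carbon unit, fell in both lines. Shmt1, the cytosolic enzyme, lies on chromosome 11 at 60788104 to 60811718 and was at 28.3 and 28.8 CPM in MATIP 4-OHT, against 133 and 118 CPM in MATIP EtOH. In MAflox cells it was at 76.8 and 74.5 CPM with 4-OHT, against 122 and 119 CPM with EtOH. In both lines the treated libraries lay below the EtOH libraries, and the EtOH libraries of the 2 lines overlapped. Shmt1 fell 4.39-fold in MATIP cells (log2 −2.13 ± 0.07, edgeR adjusted p = 1.09e-15) and 1.59-fold in MAflox cells (log2 −0.67 ± 0.06, edgeR adjusted p = 2.46e-08). The responses differed by −1.46 ± 0.09 (edgeR adjusted p = 1.42e-10). Shmt1 shares 184 exon bases with Smcr8 on the opposite strand, which is 4.74% of its own. Smcr8 averaged 122 ± 5.71 CPM in MATIP 4-OHT, above Shmt1, against 124 ± 3.27 CPM in MATIP EtOH (SD, n = 2 each). In MAflox cells it averaged 76.1 ± 0.147 CPM with 4-OHT, against 93.9 ± 3.26 CPM with EtOH. Its log2 changes were −0.03 ± 0.06 in MATIP and −0.30 ± 0.06 in MAflox cells. The share of Shmt1 counts that could come from Smcr8 is not known.

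Shmt2, the mitochondrial enzyme, lies on chromosome 10 at 127517123 to 127522444. Its level was 118 and 125 CPM in MATIP 4-OHT, against 482 and 481 CPM in MATIP EtOH, and 219 and 207 CPM in MAflox 4-OHT, against 500 and 501 CPM in MAflox EtOH. The EtOH libraries were nearly equal, and treatment separated both lines widely. The fall was 3.97-fold in MATIP cells (log2 −1.99 ± 0.06, edgeR adjusted p = 1.69e-16) and 2.35-fold in MAflox cells (log2 −1.23 ± 0.06, edgeR adjusted p = 4.02e-13). At −0.75 ± 0.08 (edgeR adjusted p = 9.6e-08), the difference of its responses had 20.7% of tested genes at or below it, against 3.55% for Phgdh. Measured per length of exon, the ratio of Shmt2 to Shmt1 was 5.19 and 5.43 in MATIP 4-OHT, against 4.52 and 5.10 in MATIP EtOH. It was 3.56 and 3.46 in MAflox 4-OHT, against 5.12 and 5.25 in MAflox EtOH. This ratio was therefore lower in both treated MAflox libraries than in the other 6. Such ratios between enzymes were chosen with the values in view and were not tested.

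Among the enzymes that oxidise, reduce and release folate-bound one-carbon units, Mthfd1, the cytosolic enzyme with 3 activities, responded most alike in the lines after Mthfd2. It lies on chromosome 12 at 76255298 to 76319803 and was at 52.9 and 52.0 CPM in MATIP 4-OHT, against 207 and 202 CPM in MATIP EtOH. In MAflox cells it was at 78.9 and 72.1 CPM with 4-OHT, against 197 and 190 CPM with EtOH. No treated library overlapped with an EtOH library of its line. Mthfd1 fell 3.89-fold in MATIP cells (log2 −1.96 ± 0.06, edgeR adjusted p = 6.46e-16) and 2.56-fold in MAflox cells (log2 −1.36 ± 0.06, edgeR adjusted p = 3.11e-13), the largest MAflox fall of the 9. The responses differed by −0.60 ± 0.08 (edgeR adjusted p = 4.35e-06).

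Mthfd1l, the mitochondrial formyl-tetrahydrofolate synthetase that releases formate, lies on chromosome 10 at 3973118 to 4167081. It was at 58.3 and 61.6 CPM in MATIP 4-OHT, against 205 and 220 CPM in MATIP EtOH, and at 149 and 145 CPM in MAflox 4-OHT, against 202 and 222 CPM in MAflox EtOH. Its treated libraries were lower in both lines and lowest in MATIP cells. Mthfd1l fell 3.55-fold in MATIP cells (log2 −1.83 ± 0.06, edgeR adjusted p = 3.54e-15) and 1.44-fold in MAflox cells (log2 −0.53 ± 0.06, edgeR adjusted p = 3.32e-07). The difference was −1.30 ± 0.09 (edgeR adjusted p = 2.81e-10).

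Mthfd2, the mitochondrial dehydrogenase and cyclohydrolase just upstream of Mthfd1l, had the smallest MATIP response of the 9. The gene lies on chromosome 6 at 83305691 to 83325908. Its level was 107 and 109 CPM in MATIP 4-OHT, against 182 and 189 CPM in MATIP EtOH, and 101 and 104 CPM in MAflox 4-OHT, against 168 and 171 CPM in MAflox EtOH. The lines fell to nearly the same level, and the treated libraries were below the EtOH libraries in both. Mthfd2 fell 1.72-fold in MATIP cells (log2 −0.78 ± 0.06, edgeR adjusted p = 1.44e-10) and 1.65-fold in MAflox cells (log2 −0.73 ± 0.06, edgeR adjusted p = 8.33e-10). The difference of −0.06 ± 0.08 had a 95% confidence interval of −0.22 to 0.11 and did not pass (edgeR adjusted p = 0.558). With another scaling (RLE size factors) and with DESeq2 it was 0.02, so its sign is not fixed. The per-length ratio of Mthfd2 to Mthfd1l was 2.34 and 2.25 in MATIP 4-OHT, against 1.13 and 1.10 in MATIP EtOH. In MAflox 4-OHT it was 0.864 and 0.906, against 1.05 and 0.979 in MAflox EtOH. The 2 mitochondrial steps to formate thus stood further apart in treated MATIP cells than in any other group.

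Aldh1l2 was far less expressed than the rest and rests on few reads. It lies on chromosome 10 at 83487450 to 83534140. It had 10 and 14 counts in MATIP 4-OHT, against 110 and 293 in MATIP EtOH, and 200 and 145 counts in MAflox 4-OHT, against 170 and 262 in MAflox EtOH. In CPM this was 0.237 and 0.276 in MATIP 4-OHT, against 2.39 and 4.91 in MATIP EtOH, and 4.23 and 3.34 in MAflox 4-OHT, against 3.86 and 4.98 in MAflox EtOH. The treated MATIP libraries were below all other libraries, while those of MAflox overlapped with their EtOH libraries. Aldh1l2 fell 14.2-fold in MATIP cells (log2 −3.82 ± 0.39, edgeR adjusted p = 3.58e-08). Without MATIP EtOH replicate 2 the log2 change was −3.21, and without MATIP EtOH replicate 1 it was −4.24. In MAflox cells its log2 change was −0.23 ± 0.27, with a 95% confidence interval of −0.80 to 0.35 that did not pass (edgeR adjusted p = 0.488). The responses differed by −3.60 ± 0.49 (edgeR adjusted p = 3.32e-06), which was −2.98 without MATIP EtOH replicate 2 and −4.02 without MATIP EtOH replicate 1. It shares 1056 exon bases, 14.07% of its own, with D10Wsu102e on the opposite strand. That gene averaged 54.8 ± 1.83 CPM in MATIP 4-OHT, against 71.8 ± 2.70 CPM in MATIP EtOH, and 49.4 ± 2.61 CPM in MAflox 4-OHT, against 68.1 ± 1.34 CPM in MAflox EtOH (SD, n = 2 each). Unlike Aldh1l2, it had log2 changes close to each other, −0.39 ± 0.07 in MATIP and −0.46 ± 0.07 in MAflox cells.

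Without 4-OHT no difference between the lines passed for these genes. Of the 9, none was called between MATIP EtOH and MAflox EtOH by edgeR, nor by DESeq2, where 32.0% of all tested genes were called by edgeR, and 1 (Mthfd2) had an unadjusted p under 0.05. The log2 differences ran between −0.26 ± 0.27 (Aldh1l2) and 0.13 ± 0.05 (Mthfd2, 95% confidence interval 0.02 to 0.25, edgeR adjusted p = 0.0730). Mthfd2 was higher in both MATIP EtOH libraries (182 and 189 CPM) than in both MAflox EtOH libraries (168 and 171 CPM). Without MATIP EtOH replicate 2, Aldh1l2 alone was called, at −0.89 (edgeR adjusted p = 0.0255).

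Set against each other per kilobase of exon, the 9 levels kept 1 order in both EtOH groups: Phgdh, Shmt2, Psat1, Mthfd2, Mthfd1l, Mthfd1, Shmt1, Psph and Aldh1l2. The length is that of all annotated exons of a gene joined, so the order and the ratios between genes depend on it. In MATIP EtOH, Psat1 averaged 560 CPM on 4254 exon bases, against 431 CPM on 2486 exon bases for Phgdh. In MATIP EtOH the means ran between 174 CPM per kb for Phgdh and 0.486 CPM per kb for Aldh1l2, and in MAflox EtOH between 182 and 0.589 CPM per kb. Neighbours whose libraries overlapped were Mthfd1l and Mthfd1 in MATIP EtOH and Mthfd2 and Mthfd1l in MAflox EtOH. In MATIP 4-OHT the order was led by Psat1 (45.7 ± 0.141 CPM per kb, SD, n = 2), followed by Shmt2 and Phgdh, whose libraries overlapped, and by Mthfd2 (31.0 CPM per kb), which came close to them. In MAflox 4-OHT, Phgdh (143 ± 5.11 CPM per kb) and Psat1 (111 ± 4.57 CPM per kb) led, Shmt2 followed at 68.4 CPM per kb, and Mthfd1 was level with Psph (17.0 and 16.0 CPM per kb, libraries overlapping). Psph and Aldh1l2 held the last places in all 4 groups. The per-length ratio of Psat1 to Phgdh was 1.37 and 1.20 in MATIP 4-OHT, against 0.743 and 0.773 in MATIP EtOH, and 0.770 and 0.776 in MAflox 4-OHT, against 0.712 and 0.751 in MAflox EtOH.

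**Figure D3:**
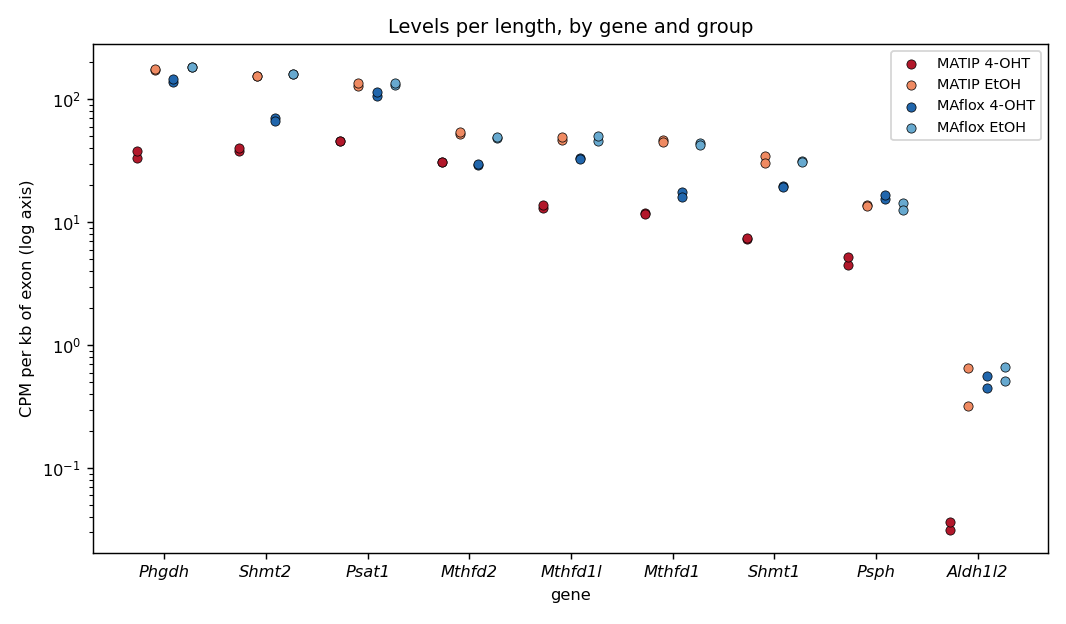
Level of the 9 enzymes per kilobase of exon (CPM per kb, log axis), with 1 point per library coloured by group. Phgdh, Shmt2 and Psat1 lead in both EtOH groups, Psat1 leads in MATIP 4-OHT at 45.7 CPM per kb and Phgdh in MAflox 4-OHT at 143 CPM per kb.

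For each enzyme the 3 genes with the most similar profile over the 8 libraries were found, by the root mean square (RMS) difference of log2 CPM centred on each gene's mean, among 9504 genes of at least 5 CPM. These values describe likeness across 4 groups and carry no test. The profile nearest to Phgdh was that of Cdc20, which activates the ubiquitin ligase of anaphase, at an RMS difference of 0.072. For Psat1 the nearest were Adi1 (0.037), an enzyme of methionine salvage, and Sfxn1 (0.044), which carries serine into mitochondria. Mthfd1l was nearest to Mcm2 (0.057), a subunit of the replicative helicase. Shmt2 was nearest to Rcc2 (0.039) and to the valyl-tRNA synthetase gene Vars (0.044). Mthfd1 was nearest to the isoleucyl-tRNA synthetase gene Iars (0.056) and to Fpgs (0.060), which adds the polyglutamate tail that retains folate in cells. Zmynd19 (0.042) for Shmt1, Bola2 (0.063) for Psph and Mapk1ip1l (0.035) for Mthfd2 were the nearest of the others, while the nearest to Aldh1l2, Stc2, was at 0.336. The rest of the 3 were Eef1g (0.102) and Ppapdc1b (0.105) for Phgdh, and Trim7 and Retsat (both 0.072) for Mthfd1l. Further ones were Spata13 (0.046) for Psat1, Mybbp1a (0.081) for Shmt2 and Ftsj3 (0.078) for Mthfd1. Shmt1 had Slc16a1 and Zfp296 (both 0.053), and Psph had Armt1 (0.081) and Parpbp (0.083). Mthfd2 had R3hdm1 (0.046) and Zfp687 (0.055), and Aldh1l2 had Fgd2 (0.382) and Rcor2 (0.419).

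The pathways that border on these enzymes were then counted, from lists that were chosen with earlier results of these data known. Their counts stand against a background of 38.6% of all tested genes called lower and 37.5% called higher in MATIP cells, and of 32.1% lower and 33.1% higher in MAflox cells. Among 9 tested genes of other folate enzymes, 6 fell and 2 rose in MATIP cells (median log2 −0.47), and 3 fell and 1 rose in MAflox cells (median −0.15). Mthfs, which returns 5-formyltetrahydrofolate to the active pool, rose in both (log2 1.63 ± 0.16 in MATIP and 2.17 ± 0.16 in MAflox cells). Tyms, thymidylate synthase, singled out after its values were seen, fell by 1.55 ± 0.08 on the log2 scale in MATIP cells and was at −0.03 ± 0.08 in MAflox cells. Falls in MAflox cells included those of Mtfmt (−0.30 ± 0.09) and Mthfd2l (−0.44 ± 0.16), and both lost their call under at least 1 alternative.

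Folate uptake and retention went 3 lower and 1 higher of 6 tested in MATIP cells, and 4 lower and 1 higher in MAflox cells. Slc19a1, the reduced folate carrier, fell by 2.49 ± 0.07 on the log2 scale in MATIP and by 0.97 ± 0.06 in MAflox cells. Fpgs fell in MATIP (−1.83 ± 0.08) and MAflox cells (−1.43 ± 0.08), as did the mitochondrial carrier gene Slc25a32 (−1.12 ± 0.11 and −0.96 ± 0.10). Slc46a1, the proton-coupled carrier, fell in MAflox cells (−0.75 ± 0.18). Ggh, the hydrolase that removes the polyglutamate tail, rose by 1.95 ± 0.09 in MATIP and 1.85 ± 0.09 in MAflox cells.

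Of the genes that use serine or carry it, 7 of 13 rose and 4 fell in MATIP cells (median log2 0.52), and 5 rose and 4 fell in MAflox cells (median 0.10). Over all tested genes 37.5% rose and 38.6% fell in MATIP cells, so that the count of falls in this list lay near the background. The same 4 carrier genes fell in both lines: Slc1a4 (−2.17 ± 0.15 in MATIP, −2.05 ± 0.15 in MAflox), Slc1a5 (−1.39 ± 0.06, −0.60 ± 0.06), Sfxn1 (−1.52 ± 0.06, −0.33 ± 0.05) and Sfxn2 (−0.48 ± 0.11, −0.28 ± 0.11), the MAflox call of Sfxn2 being lost under 4 alternatives. Rises in MAflox cells were those of Srr, Sptlc1, Sptlc2, Ptdss1 and Serinc3, at 0.34 to 0.81. These include both subunit genes of serine palmitoyltransferase, Sptlc1 (0.68 ± 0.06) and Sptlc2 (0.34 ± 0.06), which also rose in MATIP cells (0.52 ± 0.06 and 0.90 ± 0.06).

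Glycine genes split evenly in MATIP cells, with 4 of 8 tested higher and 4 lower, where all tested genes also split nearly evenly, with 37.5% higher and 38.6% lower (median log2 of the list 0.54, or 0.53 with Gldc at a bound of 3 counts over the group). The rises were all of genes with few reads. Summed over the 2 libraries of a group, Sardh had 481 counts in MATIP 4-OHT, against 6 in MATIP EtOH, Gldc 36 against 0, Gnmt 36 against 10 and Amt 110 against 52, and the calls of Gnmt and Amt were lost under several alternatives. The falls were Gcat, which makes glycine from threonine breakdown (−2.23 ± 0.10), Gcsh (−1.09 ± 0.07), Glyat (−0.60 ± 0.13) and Dld (−0.19 ± 0.06, lost with RLE size factors). In MAflox cells Gcat (−0.83 ± 0.09), Gcsh (−0.65 ± 0.07) and Glyat (−0.32 ± 0.13, lost with DESeq2) fell and Sardh rose, on 36 counts in MAflox 4-OHT against 6 in MAflox EtOH.

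Purine synthesis, which takes up the formyl groups the enzymes make, fell throughout in MATIP cells. All 13 genes fell there, 9 of them at least 2-fold (median log2 −1.58), led by Impdh2 at −2.00 ± 0.06, the enzyme gene of the first step towards guanine nucleotides. In MAflox cells 12 of 13 fell, 3 at least 2-fold (Gart, Pfas and Atic, median of all 13 −0.59), led by Pfas (−1.56 ± 0.06). Adssl1, an adenylosuccinate synthase gene, rose in MAflox cells (0.73 ± 0.06). By the test of the difference, 11 of the 13 were lower in MATIP cells, where 33.6% of tested genes were. Over all tested genes, 14.1% fell at least 2-fold in MATIP and 8.29% in MAflox cells.

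All 8 tested genes of the methionine cycle and transsulfuration fell in MATIP cells (median log2 −1.04), led by Ahcy, which hydrolyses S-adenosylhomocysteine (−1.78 ± 0.06). In MAflox cells 5 fell (median −0.41), namely Mtr, methionine synthase (−1.22 ± 0.08), Ahcy (−0.96 ± 0.06), Mtrr (−0.53 ± 0.08), Ahcyl1 (−0.36 ± 0.06) and Mat2a (−0.28 ± 0.05). The 2 rises were Mat2b (0.27 ± 0.06) and Cth, cystathionine gamma-lyase (1.22 ± 0.19).

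Among 8 transcription factors described as regulators of serine and folate enzymes, 6 rose and 2 fell in MATIP cells, where 37.5% of all tested genes rose and 38.6% fell. Atf4 fell by 0.60 ± 0.06 in MATIP and by 0.20 ± 0.06 in MAflox cells, the last call being lost without MAflox EtOH replicate 2 (−0.18). Trp53 fell by 1.74 ± 0.07 in MATIP and by 1.08 ± 0.06 in MAflox cells. Among the factors with a mean of at least 5 CPM, the largest rise was that of Atf3, a stress-induced factor, at 4.52 ± 0.15 in MATIP and 2.56 ± 0.19 in MAflox cells. Ddit3 (2.09 ± 0.13 in MATIP and 0.59 ± 0.14 in MAflox cells) and Nfe2l2 (1.20 ± 0.06 and 0.46 ± 0.06) also rose in both lines. Myc was at 445 ± 3.53 CPM in MATIP 4-OHT, against 360 ± 15.8 CPM in MATIP EtOH, and at 212 ± 21.6 CPM in MAflox 4-OHT, against 337 ± 2.80 CPM in MAflox EtOH (SD, n = 2 each). It rose in MATIP cells by 0.31 ± 0.06 and fell in MAflox cells by 0.67 ± 0.06. Mycn, a MYC family gene with few reads, moved the same ways: summed over a group it had 202 counts in MATIP 4-OHT, against 4 in MATIP EtOH, and 2 counts in MAflox 4-OHT, against 34 in MAflox EtOH. It was called higher in MATIP cells (log2 5.75 ± 0.77, the largest fitted rise of the 8, given after its values were seen) and lower in MAflox cells. Without MATIP EtOH replicate 2 no count of Mycn remains in MATIP EtOH, so the fitted rise of 9.64 is not a measured size. These are RNA levels of the factors, and ATF4 is also controlled at translation.

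**Figure D4:**
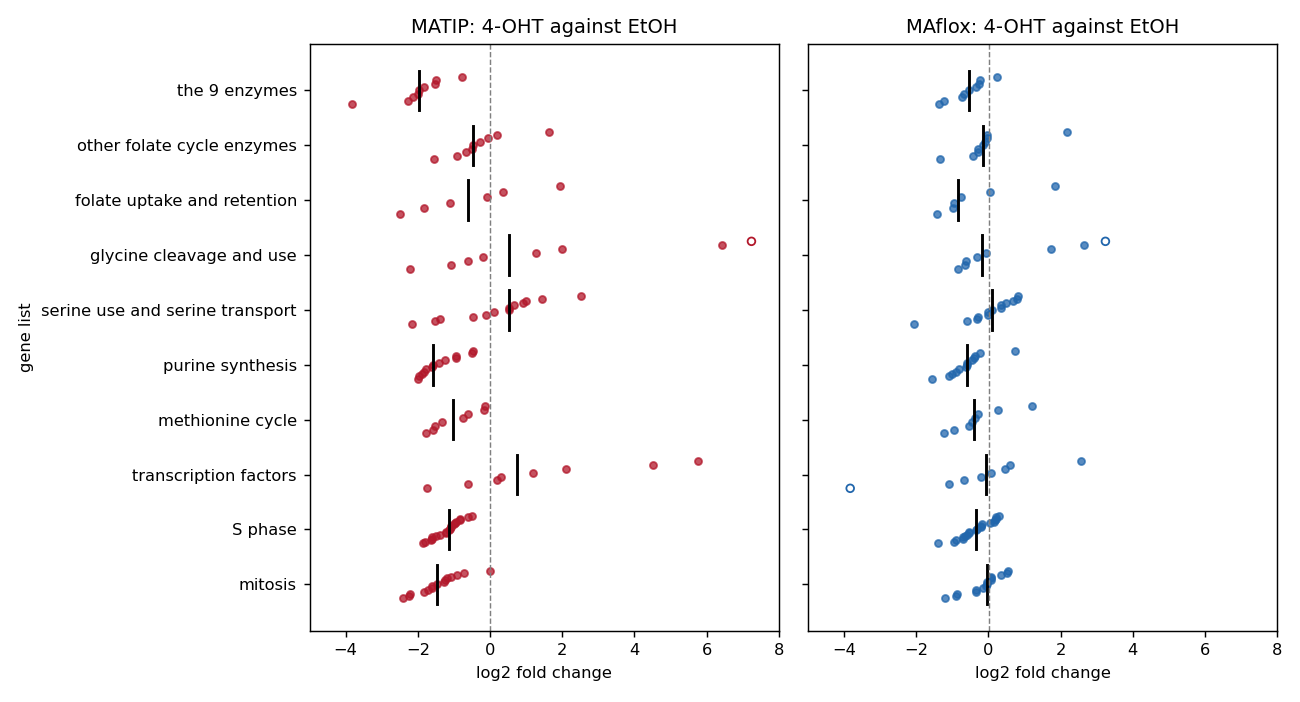
Log2 fold change with 4-OHT against EtOH of each tested gene in the lists, in MATIP cells (left) and MAflox cells (right), with a black bar at the list's median. Open circles are genes with 3 or fewer counts in 1 of the 2 groups. The 9 enzymes, purine synthesis, the methionine cycle, S phase and mitosis have medians between −1.96 and −1.04 in MATIP cells and between −0.59 and −0.05 in MAflox cells.

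Genes of the cell cycle were counted as well. Over all tested genes 38.6% fell and 37.5% rose in MATIP cells, and 32.1% fell and 33.1% rose in MAflox cells. In the S phase list 20 of 20 genes fell in MATIP cells (median log2 −1.12), led by Mcm2 (−1.86 ± 0.05), and 14 fell and 4 rose in MAflox cells (median −0.33), where Pole changed most (−1.40 ± 0.08). The rises there were Pcna (0.30 ± 0.06), Rrm2 (0.17 ± 0.05), Slbp (0.20 ± 0.06) and Rfc4 (0.20 ± 0.08). With the length and GC trend removed, Pcna, Rrm2 and Rfc4 were at −0.07, −0.12 and −0.40, and Slbp was at 0.13 and not called. The rise of Slbp was also lost without MAflox EtOH replicate 2 (0.15), that of Rfc4 with DESeq2 and without any 1 of the 4 MAflox libraries, and that of Rrm2 without 3 of those 4. Their summed level was 2230 and 2270 CPM in MATIP 4-OHT, against 5110 and 5010 CPM in MATIP EtOH, and 4190 and 4360 CPM in MAflox 4-OHT, against 5270 and 5290 CPM in MAflox EtOH.

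Mitotic genes fell in 14 of 15 cases in MATIP cells (median log2 −1.47), led by Ube2c (−2.40 ± 0.07), with Mki67 not called (−0.01 ± 0.07). In MAflox cells 5 fell (Cenpe at −1.19 ± 0.06, Plk1, Mki67, Tpx2 and Cdc20) and 3 rose (Cenpa, Ccnb2 and Cdk1, at 0.34 to 0.55), with a median of −0.05. With 32.1% of all tested genes lower and 33.1% higher in MAflox cells, the 5 falls of 15 lay near the background. Ccnb2 was at 0 with the length and GC trend removed. The mitotic sum was 1550 and 1510 CPM in MATIP 4-OHT, against 3370 and 3380 CPM in MATIP EtOH, and 3130 and 3300 CPM in MAflox 4-OHT, against 3370 and 3570 CPM in MAflox EtOH. Both sums and the sum of the 9 enzymes were thus lowest in the treated MATIP libraries. The part of the cell cycle in the fall of the enzymes was not tested.

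The authors' deposited table (DESeq2 per the submitters' processing notes) gave all 9 genes the same sign as here in both lines. Its log2 fold change was −2.24 for Phgdh and −0.74 for Mthfd2 in MATIP cells, and −1.23 for Shmt2 and −0.21 for Aldh1l2 in MAflox cells. The authors' deposited table differed from the values here by at most 0.25, for Aldh1l2 in MATIP cells, and by at most 0.02 in MAflox cells.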

How the data were processed

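Total RNA from 8 libraries (2 per group) was sequenced by Illumina protocols. The authors deposited raw counts of reads for each gene symbol, made with Trimmomatic 0.38.0, HISAT2 2.1.0 and featureCounts 1.6.4 on mm10, per the submitters' processing notes. How strand and multi-mapped reads were handled, and the annotation, is not given in the sources used. The authors' own log2 fold changes and adjusted p-values were deposited as well. In the count file 23 columns are empty.

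Of 24421 symbols, 17831 had a count and 13722 passed filterByExpr (minimum count 10, minimum total 15). Genes were tested by quasi-likelihood in edgeR 4.0.16 (R 4.3.3, TMM factors, 1 coefficient per group, no covariate, residual df 4, prior df 14.3, common BCV 5.98%). P-values were adjusted by Benjamini-Hochberg over all tested genes in a contrast and called at 0.05. SE is the log2 change over the square root of F, and CPM are scaled by TMM. No replicate pair was a duplicate within counting error (chi-square per df 7.33 to 13.6). Depth limits Aldh1l2 and the genes given as counts, and any bound at 3 counts covers counting error only.

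Alternatives were RLE factors, DESeq2 1.42.0, no filter, only the libraries compared, a replicate block, a length and GC trend removed (known for 96.2% of tested genes), a 2-fold rule, and each library left out. Scripts were tested on simulated data. Positions and exon lengths come from GENCODE M21 (23334 symbols matched once) and promoters from RefSeq.

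The 9 genes and all lists were chosen with earlier results of these data known. Named genes were the 9, Kat5, each list's called gene of largest change with a mean of at least 5 CPM, every gene of a count of 5 or fewer, and the 3 nearest profiles. Values of some genes of the lists are not reported here.

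Marker lists not printed with a result were as follows. Mast cell and basophil markers summed to 2.98 to 2.99 CPM in MATIP 4-OHT, 7.90 to 8.61 in MATIP EtOH, 30.9 to 33.4 in MAflox 4-OHT and 22.2 to 24.2 in MAflox EtOH. Eosinophil markers summed to 22.5 to 24.2, 4.09 to 4.15, 50.0 to 77.1 and 7.74 to 8.93 CPM in the same order of groups, erythroid and megakaryocyte markers to at most 6.42 CPM (Hba-a1 and Hbb-bt at 0), lymphoid markers to at most 0.853 CPM (Cd3e and Ncr1 at 0) and stromal markers to 60.6 to 91.2 CPM.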

Additional observations from a re-analysis of the deposited data

Results flagged for a closer look

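The response to 4-OHT differed between MATIP and MAflox cells, by the edgeR test of the difference with Benjamini-Hochberg adjustment, for 8 of the 9 enzymes. On the log2 scale, MATIP minus MAflox, the difference was −1.93 for Phgdh, −1.26 for Psat1, −1.75 for Psph, −1.46 for Shmt1, −0.75 for Shmt2, −0.60 for Mthfd1, −1.30 for Mthfd1l and −3.60 for Aldh1l2. Both treated MATIP libraries were below both treated MAflox libraries for each of these 8. For Kat5, the floxed gene, it was −2.82.

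Among the neighbouring pathways, the responses of Slc19a1 differed by −1.52, of Gcat by −1.40, of Impdh2 by −1.19, of Ahcy by −0.82 and of Mthfs by −0.54, all lower in MATIP cells. Atf3 (1.96), Mtr (0.46) and Pole (0.55) differed the other way. The calls of Mtr and Pole were lost with the length and GC trend removed (0.11 and 0.01), and that of Mthfs under 9 of its alternatives. In the cell cycle lists the difference was −2.46 for Ube2c, −1.31 for Mcm2 and 0.46 for Cenpe.

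Several named genes were called in opposite directions in the lines. Lower in MATIP and higher in MAflox cells were Cth (difference −2.81), Adssl1 (−1.22), Mat2b (−0.45), Ccnb2 (−2.23), Cenpa (−2.16), Cdk1 (−1.62), Rfc4 (−1.20), Rrm2 (−1.11), Slbp (−1.02) and Pcna (−0.80). The MAflox rises of Pcna, Rrm2, Rfc4, Slbp and Ccnb2 were not kept with the length and GC trend removed. Higher in MATIP and lower in MAflox cells were Myc (0.98) and Mycn (9.58, on 2 and 4 counts in its lower groups).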

How the results depend on the processing

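Apart from the 2-fold rule, the 9 enzymes kept direction and call in MATIP cells under all 14 alternatives, and in MAflox cells 123 of 126 values did, the 3 others being the lost calls of Psph. All 8 called differences held under all 13 alternatives of that kind. That of Mthfd2 was 0.02 with RLE factors and with DESeq2. Removing the length and GC trend moved the median of all genes to −0.18 in MATIP and −0.09 in MAflox cells and to −0.13 for the difference, so the enzymes' falls stand against those shifts.

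Requiring a 2-fold change left 5040 genes called of 10441 in MATIP cells, 3024 of 8947 in MAflox cells, 3602 of 8491 for the difference and 1107 of 4388 between the EtOH groups, and 8 enzymes in MATIP cells (not Mthfd2), 2 in MAflox cells and 6 for the difference. With each library left out in turn, genes called ran from 9583 to 10608, 8123 to 9106, 7760 to 8241 and 3173 to 4287 in that order, and enzymes called between the EtOH groups from 0 to 1 (Aldh1l2 without MATIP EtOH replicate 2).

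Sizes near 0 between the EtOH groups changed sign without consequence for a call. Psph (0.02) was at 0 with RLE factors and DESeq2, −0.01 without the filter or with only the libraries compared, −0.04 with the length and GC trend removed and −0.07 to 0.12 with libraries left out. Mthfd1l (0) was at −0.02, −0.03, −0.06 and −0.06 to 0.07 under the same. With 1 library left out, Psat1 was at −0.06 to 0.02, Shmt1 at −0.04 to 0.15 and Aldh1l2 at −0.89 to 0.15.

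Of the values of named genes outside the 9, 1357 kept direction and call, 56 lost a call and 5 changed sign: with the length and GC trend removed Pcna (−0.07), Rrm2 (−0.12) and Rfc4 (−0.40 in MAflox), and with 1 library left out Tyms in MAflox (−0.10 to 0.05, with 0.03 the other). The cause was not tested.

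No sign of pairing by replicate number was seen within a line: same-numbered libraries correlated at −0.09 in MATIP and −0.01 in MAflox cells. Between groups of different lines the values ran from −0.15 (MATIP 4-OHT with MAflox EtOH) to 0.22 (the EtOH groups), over 9806 genes. With 2 libraries a group, these values cannot settle whether the numbers mark paired cultures. With a replicate block 10153, 8647, 8155 and 4249 genes were called in the 4 contrasts, and 9, 8, 8 and 0 enzymes.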
